A study of Mus musculus with 5 samples.

Results

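The Dlk1-Dio3 imprinted locus is a cluster of genes on mouse chromosome 12 whose transcripts come from only 1 of the parental chromosomes. It was described here by 6 genes of 24421, found by symbol in both deposited expression tables. Meg3, Rian, and Mirg are expressed from the maternally inherited chromosome, and Dlk1, Rtl1, and Dio3 from the paternally inherited one. RNA-seq had been performed on 5 mouse libraries, 1 per group, so no value has a replicate error and no p-value is given. The first table holds primary MEFs, fibroblasts grown from CF-1 mouse embryos at mid-gestation; iPSCs, somatic cells reprogrammed to pluripotency; and V6.5 embryonic stem cells without any shRNA, called mESCs below. The second, made separately, holds V6.5 cells with a non-targeting control shRNA (NTC) and V6.5 cells with an shRNA against Gldc (shGldc), the glycine-cleaving enzyme that the study was about. The iPSC line had been obtained from a cell bank, and the strain and founder cells of the sequenced line are not given in the sources used here, nor is which Gldc hairpin was sequenced. The labels describe the pluripotent cells as feeder-independent, grown on gelatin with serum replacement and LIF, whereas the study's methods also give a serum medium for such cells on feeder cells, without naming which the sequenced cells had. Since MEFs and V6.5 cells differ in strain as well as cell type, these cannot be told apart in the comparisons with MEFs. As the strain of the iPSC line is unknown, strain, founder cells, and reprogramming cannot be told apart in the comparison of iPSCs with mESCs.

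At this locus, a control region between Dlk1 and Meg3 is methylated on the paternal chromosome and unmethylated on the maternal one. The unmethylated copy permits a long run of noncoding transcription through Meg3, Rian, and Mirg, from which many microRNAs and C/D snoRNAs are cut, while the methylated copy permits the protein-coding genes. The locus is known in mouse iPSCs because the maternal transcripts are silenced in some reprogrammed lines and retained in others, and the proteins Zfp57, Zfp445, and Trim28 are known to keep the paternal methylation through cell division. FPKM values do not separate the alleles, so maternally and paternally expressed are names taken from this background and not measurements. In bulk RNA, fewer cells that express a gene and less RNA per cell cannot be told apart.

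The start regions of Meg3, Dlk1, and Dio3 are shown because these genes open the maternal noncoding run and the paternally expressed coding genes at the ends of the locus. They come from RefSeq on GRCm38.p6 (mm10), plus strand, with 250 bases before and 50 after the annotated start, at chr12:109540746-109541045 for Meg3, chr12:109452573-109452872 for Dlk1, and chr12:110278980-110279279 for Dio3. Capitals mark the hexamer TGCCGC, which Zfp57 recognises when its CG is methylated, on either strand; it appears as its reverse complement, GCGGCA.
Meg3 promoter: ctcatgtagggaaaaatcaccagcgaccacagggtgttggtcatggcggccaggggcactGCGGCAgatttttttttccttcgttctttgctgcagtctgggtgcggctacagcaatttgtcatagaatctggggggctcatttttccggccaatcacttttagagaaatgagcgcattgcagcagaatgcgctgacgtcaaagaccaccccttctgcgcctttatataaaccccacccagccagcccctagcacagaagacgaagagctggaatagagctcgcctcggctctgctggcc
Dlk1 promoter: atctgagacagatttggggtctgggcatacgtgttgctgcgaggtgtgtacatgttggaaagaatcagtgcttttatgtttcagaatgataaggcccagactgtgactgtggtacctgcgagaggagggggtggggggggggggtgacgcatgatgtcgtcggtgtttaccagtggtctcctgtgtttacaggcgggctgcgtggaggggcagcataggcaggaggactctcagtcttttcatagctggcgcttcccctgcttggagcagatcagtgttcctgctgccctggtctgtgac
Dio3 promoter: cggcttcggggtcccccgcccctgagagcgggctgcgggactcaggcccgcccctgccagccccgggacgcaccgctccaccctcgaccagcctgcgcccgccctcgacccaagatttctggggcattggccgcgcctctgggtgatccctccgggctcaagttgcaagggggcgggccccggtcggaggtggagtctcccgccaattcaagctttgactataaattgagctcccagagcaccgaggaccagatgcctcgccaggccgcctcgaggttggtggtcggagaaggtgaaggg

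The Meg3 window held 1 match, 190 bases before the start (position -190). The windows of Dlk1, Dio3, Rian, and Mirg and a second Meg3 window held none, and no window was given for Rtl1. Of 32851 promoter windows of the same length, 3813 (11.6%) held the hexamer, and a match describes letters only. The windows differed more in CG dinucleotides: 25 in Dio3, 13 in Meg3, 10 in Mirg, 9 in Dlk1, and 0 in Rian, against a median of 7 over all windows. The control region between Dlk1 and Meg3 lies outside these windows and was not analysed here.

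RefSeq places 61 microRNA genes with 114 mature sequences between Dlk1 and Dio3. The first set shown consists of 3p arms that lie within Rtl1 on its opposite strand, since these are the maternal transcripts that pair fully with the paternal Rtl1 mRNA; capitals mark the seed (bases 2 to 8).
miR-431-3p: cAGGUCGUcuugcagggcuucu
miR-433-3p: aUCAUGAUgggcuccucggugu
miR-127-3p: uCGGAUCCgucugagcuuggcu
miR-434-3p: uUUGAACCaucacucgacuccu
miR-136-3p: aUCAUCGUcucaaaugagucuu

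The second set consists of microRNAs of the locus that share a seed with another of its microRNAs, as found in 9 seeds with at most 2 sequences each: miR-379-5p with miR-1193-5p, miR-379-3p with miR-411-3p, and miR-494-5p with miR-410-5p.
miR-379-5p: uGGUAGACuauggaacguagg
miR-1193-5p: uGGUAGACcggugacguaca
miR-379-3p: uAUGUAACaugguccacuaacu
miR-411-3p: uAUGUAACacgguccacuaacc
miR-494-5p: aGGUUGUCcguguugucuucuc
miR-410-5p: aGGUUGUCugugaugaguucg

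The pairs differ after the seed, and none of these sequences was quantified as a mature microRNA, since the libraries were made for long RNA. Of the 77 entries of the tables between Dlk1 and Dio3, 50 were at 0 in all 5 libraries, among them 49 of the 61 microRNA entries. Apart from the members, 2 entries reached an FPKM of 1. AF357359, an entry of 30 bases annotated as a snoRNA within Rian (chr12:109650709-109650738), had 23.6 in MEFs, 0.975 in iPSCs, 10.0 in mESCs, 6.68 in NTC, and 2.44 in shGldc. Its order in the first table was that of Rian, and a read over it can also come from Rian itself. Mir3072, within Mirg, had 1.81 in shGldc, 0 in NTC, and 0.298 or less in the other libraries. Both entries are so short that very few fragments give such values, and their fragment counts were not estimated.

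In GENCODE M21 (mm10), Dlk1 lies at chr12:109452823-109463336, Meg3 at chr12:109541001-109571726, Rian at chr12:109603940-109661716, Mirg at chr12:109729764-109749460, and Dio3 at chr12:110279068-110281097, all on the plus strand. Rtl1, at chr12:109589193-109600330, is the member on the minus strand. Its exons overlap Mir127, Mir136, Mir431, Mir432, Mir433, and Mir434 on the opposite strand, and RefSeq gives Rtl1 a longer span (chr12:109564900-109604418) that reaches into Meg3 and Rian. The strand setting of the authors' counting is not given in the sources used here, so Rtl1 reads and reads of the maternal antisense transcripts cannot be told apart. Rian holds 13 annotated snoRNAs and 4 microRNAs and Mirg 15 microRNAs, and the Meg3 exons overlap Gm26906 on the opposite strand.

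Expression is given as FPKM, the fragments of a gene scaled to its transcript length and to all mapped fragments, so that levels can be compared between genes of a library. The main comparisons stay within a table, and any ratio or order that crosses the tables also holds whatever differs between them. The depth was estimated at 24600000 fragments for MEFs, 22100000 for iPSCs, and 24600000 for mESCs, and at 14500000 or 29100000 for NTC and 14300000 or 28800000 for shGldc, of which the lower was used. Gldc, the shRNA target, had FPKM values of 74.7 in NTC and 2.07 in shGldc (2.77% left), 59.7 in mESCs, 70.8 in iPSCs, and 0.123 in MEFs. The 10 markers of pluripotent cells summed to 3826 to 7157 in the 4 pluripotent libraries and 3.40 in MEFs, and the 10 fibroblast markers to 7211 in MEFs and 8.15 to 53.9 elsewhere. The MEF library also held macrophage transcripts (8 markers summing to 301, with C1qa at 52.7). The list summed to 10.9 to 20.6 in the other 4 libraries, of which Cd68 alone made 9.04 to 19.9, and 2 to 6 of the markers, C1qc in all, were at 0.

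The maternally expressed genes were highest in MEFs and lowest in iPSCs. Rian, the host transcript of many C/D snoRNAs, was the most abundant of the maternal genes in every library, with FPKM values of 60.9 in MEFs, 3.27 in iPSCs, 13.2 in mESCs, 17.9 in NTC, and 14.6 in shGldc. Meg3, a noncoding RNA that can act with Polycomb proteins, had 4.10, 0.288, 2.57, 3.01, and 2.08 in the same order. Mirg, the host of a large microRNA cluster, had 6.41, 0.373, 2.89, 4.72, and 2.26. In each of these genes iPSCs lay below all 4 other libraries, and on a log scale the 3 V6.5 libraries lay nearer to each other than to iPSCs. At the shortest matching transcript, which gives the fewest fragments and so the widest counting intervals, the iPSC values stand for about 21.3 fragments of Rian, 12.1 of Meg3, and 10.7 of Mirg, against 92.6 to 120 in mESCs.

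The paternally expressed genes had no common order. Dlk1, a membrane protein related to the Notch ligands that holds back differentiation of preadipocytes, had FPKM values of 38.1 in MEFs, 1.31 in iPSCs, 0.574 in mESCs, 2.30 in NTC, and 5.27 in shGldc. It was far highest in the MEF library and low in all pluripotent libraries, with mESCs lowest. Dio3, the deiodinase that inactivates thyroid hormone, had 1.50 in MEFs, 1.84 in iPSCs, 0.464 in mESCs, 0.913 in NTC, and 0.727 in shGldc. It was the member whose highest value was in iPSCs, close to that of MEFs. Rtl1, a retrotransposon-derived gene needed in placental vessels, was low everywhere, with 0.190 in MEFs, 0.0173 in iPSCs, 0.0580 in mESCs, 0.132 in NTC, and 0.0499 in shGldc, and its iPSC value of about 2.43 fragments is under the limit of 3 fragments set here.

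**Figure D1:**
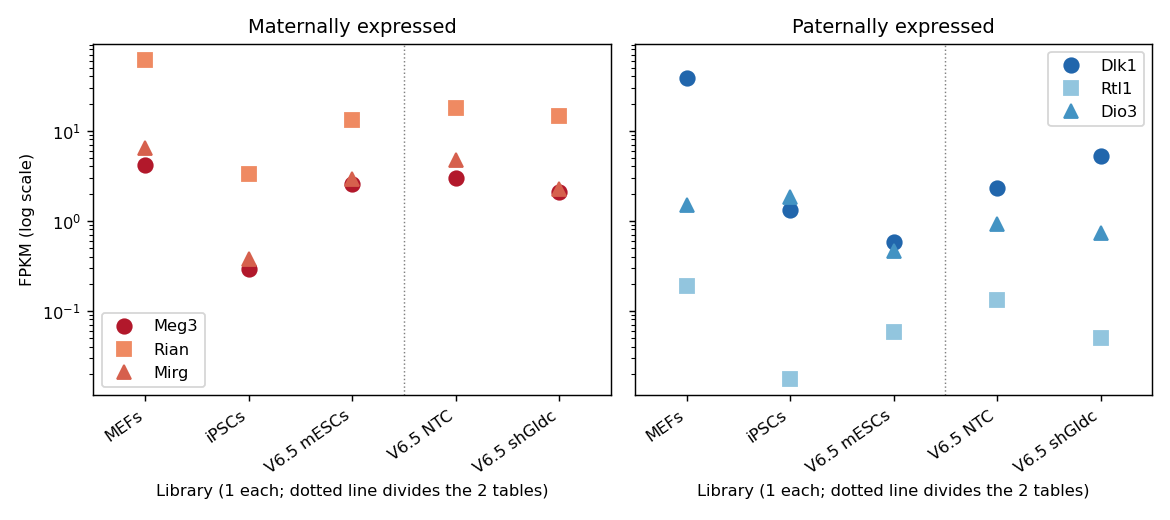
FPKM on a log scale (vertical axis) of the maternally expressed genes (left) and the paternally expressed genes (right) in the 5 libraries, 1 point per library with no error. Meg3, Rian, and Mirg drop together to their lowest points in iPSCs (0.288, 3.27, and 0.373), whereas Dio3 has its highest point there (1.84) and Dlk1 lies far highest in MEFs (38.1).

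The comparison of iPSCs with mESCs asks whether the reprogrammed cells carried the locus at the level of embryo-derived cells. Ratios are differences of log2(FPKM + 0.1), a scale on which changes of low genes come out too small, and a gene was kept when either library reached an FPKM of 1. Of these 12323 genes, iPSCs had 7.44% at least 2-fold below mESCs and 10.1% at least 2-fold above, with a median log2 ratio of 0.04. The 3 maternal genes were all on the lower side: Meg3 at -2.78, Mirg at -2.66, and Rian at -1.98. In iPSCs, 11.2% of the mESC level of Meg3 remained, 12.9% of Mirg, and 24.8% of Rian. The FPKM of Meg3 was 8.92-fold lower, with a 95% interval from counting alone of 4.96 to 17.9; that of Mirg was 7.74-fold lower (4.05 to 15.7) and that of Rian 4.03-fold lower (2.51 to 6.87). From the lowest ratio upward they ranked 85 (Meg3), 96 (Mirg), and 195 (Rian) of the 12323 genes. Meg3 and Mirg are in this set only through their mESC values, which fixes their side, so their ranks describe and do not test.

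Dlk1 and Dio3 were on the higher side, 2.28-fold (1.23 to 4.47 from counting alone) and 3.96-fold (2.51 to 6.68). Their log2 ratios were 1.06 and 1.78, and for Dlk1 0.996 once both libraries were scaled to the same FPKM sum, which is under the 2-fold line. With a pseudocount of 1 they were 0.55 for Dlk1 and 0.96 for Dio3, also under that line. For Rtl1 the iPSC value rests on about 2 fragments, and its ratio of 0.298 has a counting interval of 0.0260 to 1.20, so no difference was detectable at this depth. In all, 5 of the 6 members passed the filter; Meg3 and Mirg did so only through mESCs and Dlk1 and Dio3 only through iPSCs, and such a gene had to differ from the other library to pass. The median over the maternal genes was -2.66 and over the paternal genes 1.06, a difference of -3.72, which was -2.05 with a pseudocount of 1 and -2.23 with NTC in place of the mESCs. The 3 genes of a class are neighbours that share a control region and are not replicates.

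**Figure D2:**
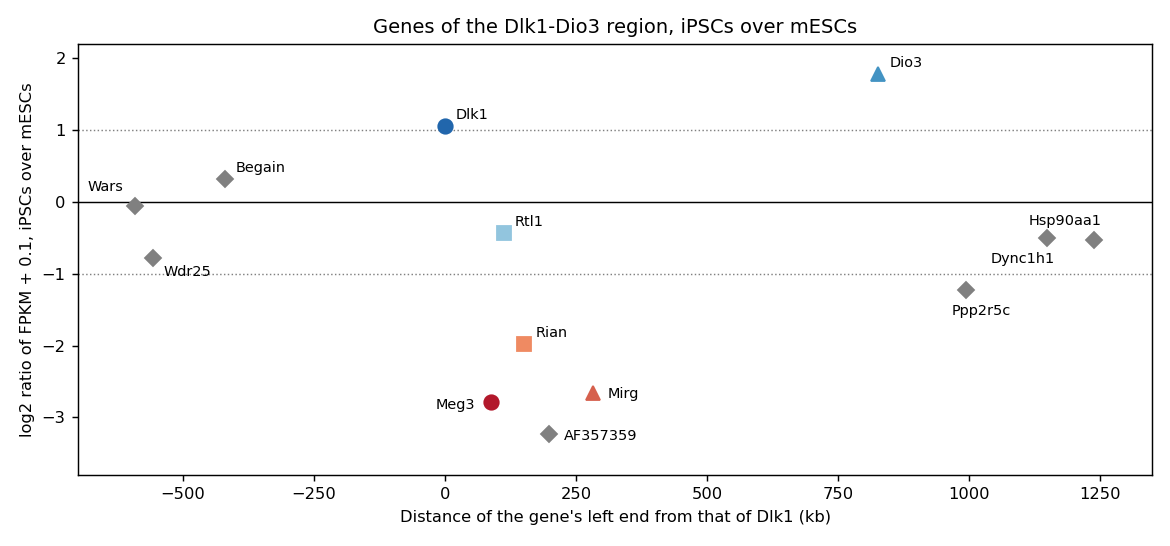
Log2 ratio of FPKM + 0.1, iPSCs over mESCs (vertical axis), of the members and of other entries that reached an FPKM of 1 in iPSCs or mESCs, by distance of the gene's left end (lowest RefSeq coordinate) from that of Dlk1 in kb (horizontal axis); red symbols are maternal, blue paternal, grey others, and dotted lines mark 2-fold. The maternal genes lie between -1.98 and -2.78 while Dlk1 and Dio3 at the ends of the locus lie above 1, and of the grey genes outside the locus Ppp2r5c alone passes the lower line (-1.22).

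The side of the maternal genes and of Dio3 was the same with the NTC library in place of the mESCs, a comparison across the tables that was chosen after seeing the data. Meg3, Rian, and Mirg were at 0.288, 3.27, and 0.373 in iPSCs against 3.01, 17.9, and 4.72 in NTC, and Dio3 was at 1.84 against 0.913. The log2 ratio of Dio3 was then 0.94, under the 2-fold line. Dlk1 turned: it was at 1.31 in iPSCs and 2.30 in NTC, a log2 ratio of -0.77 in place of 1.06. Which V6.5 library is taken therefore sets the direction for Dlk1.

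The mESC library held some fibroblast transcripts: the 10 fibroblast markers were at a median of 1.56% of their MEF level (0.559% to 5.28%), each above 0. In iPSCs the median was 0.0845%, with Dcn at 0 and Twist1 highest at 22.1%, and in NTC and shGldc 4 markers, Col3a1, Lum, Dcn, and Postn, were at 0. A share of 1.56% of the MEF level would amount to 0.596 FPKM of Dlk1, which is 104% of the Dlk1 value of the mESCs. Thy1 and Twist1 were also found in iPSCs (8.30 and 11.8), and without these markers the median share was 0.894%, or 0.341 FPKM and 59.3% of the Dlk1 value. The share of 1.56% would amount to 7.22% of the mESC value of Rian, 5.04% of Dio3, 3.47% of Mirg, and 2.49% of Meg3, and at the highest marker share to 24.4% for Rian, 11.7% for Mirg, and 8.41% for Meg3. That highest share is of Pdgfra, which was at 0.810 in iPSCs and 0.834 in mESCs and is also listed below as an endoderm marker. With the median share taken off the mESC values, likewise chosen after seeing the data, the difference between the class medians became -4.46, with Dio3 as the paternal median, and Dlk1 was left at 0 in mESCs, so that its log2 ratio of 3.82 is set by the pseudocount. With the share without Thy1 and Twist1, the class difference was -4.45 and the log2 ratio of Dlk1 2.07. Whether fibroblast RNA contributed to Dlk1 or to any other mESC value was not tested.

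**Figure D3:**
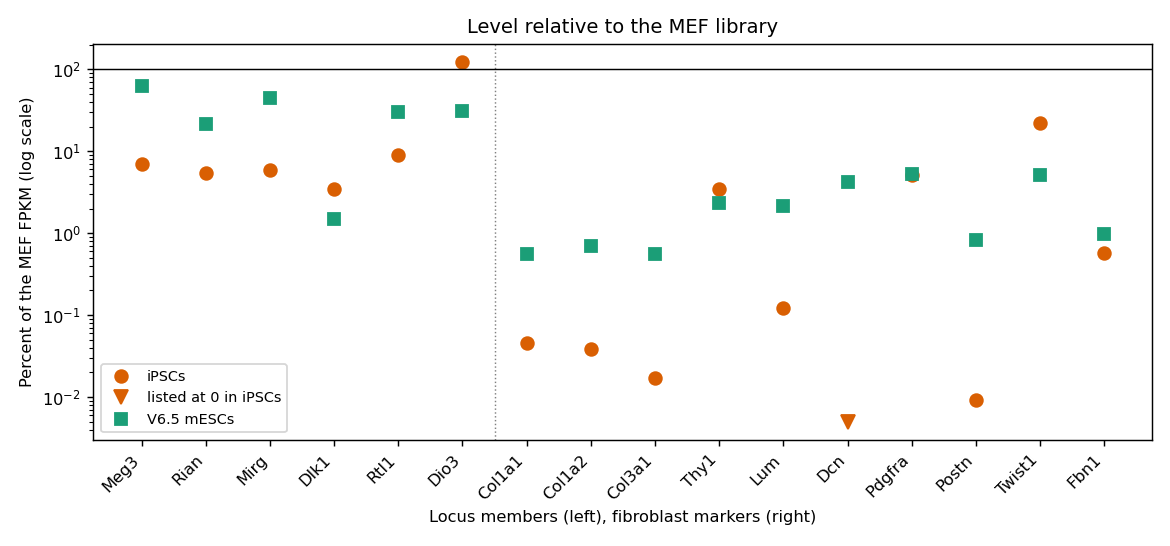
Level of each member (left of the dotted line) and of the 10 fibroblast markers (right) in iPSCs and mESCs as percent of its MEF FPKM, on a log scale, with the line at 100% marking the MEF level. Dlk1 in mESCs (1.51%) lies among the fibroblast markers of that library, whereas Meg3 (62.7%), Mirg (45.1%), and Rian (21.6%) lie above their highest mESC value (5.28%), and Dio3 in iPSCs lies at 123%.

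Other cell type markers moved between iPSCs and mESCs too. Of the endoderm markers, the 3 that passed the filter were all at least 2-fold higher in iPSCs: Gata6 at 4.46 against 0.646, Gata4 at 9.99 against 3.52, and Sox17 at 2.57 against 0.571, with the list of 6 summing to 18.7 against 5.77 and Afp at 0 in both; 10.1% of all genes were higher, and Gata6 and Sox17 passed only through iPSCs, which fixes their side. Of the 5 neural markers, 4 were at least 2-fold lower in iPSCs and Neurod1 was higher (the list summed to 26.0 against 78.1), where 7.44% of all genes were lower and Pax6 passed only through mESCs and Neurod1 only through iPSCs, with Sox1 at 1.66 in iPSCs, 7.62 in mESCs, and 1.43 in NTC. Their part in the values of the locus was not tested. The pluripotent markers held, with none of 10 past 2-fold.

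Within a library, ratios between members need no comparison across libraries. The ratio of Rian to Dio3 was 40.7 in MEFs, 28.4 in mESCs, 19.6 in NTC, and 20.1 in shGldc, but 1.78 in iPSCs. Meg3 exceeded Dio3 by 2.74-fold in MEFs, 5.54-fold in mESCs, 3.30-fold in NTC, and 2.86-fold in shGldc, whereas in iPSCs their ratio was 0.157. The iPSC library was thus the one in which Dio3 exceeded Meg3, and likewise Mirg (0.203, against 3.11 to 6.23 elsewhere). Ratios to Dlk1 divided the libraries in another way: Meg3 over Dlk1 was 0.108 in MEFs, 0.221 in iPSCs, and 0.393 in shGldc, but 4.48 in mESCs and 1.31 in NTC. Among the maternal genes Rian shifted, with Rian over Meg3 at 14.9 in MEFs and 11.3 in iPSCs, and at 5.13, 5.94, and 7.05 in mESCs, NTC, and shGldc. Mirg over Meg3 shifted less, from 1.09 in shGldc to 1.57 in NTC.

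**Figure D4:**
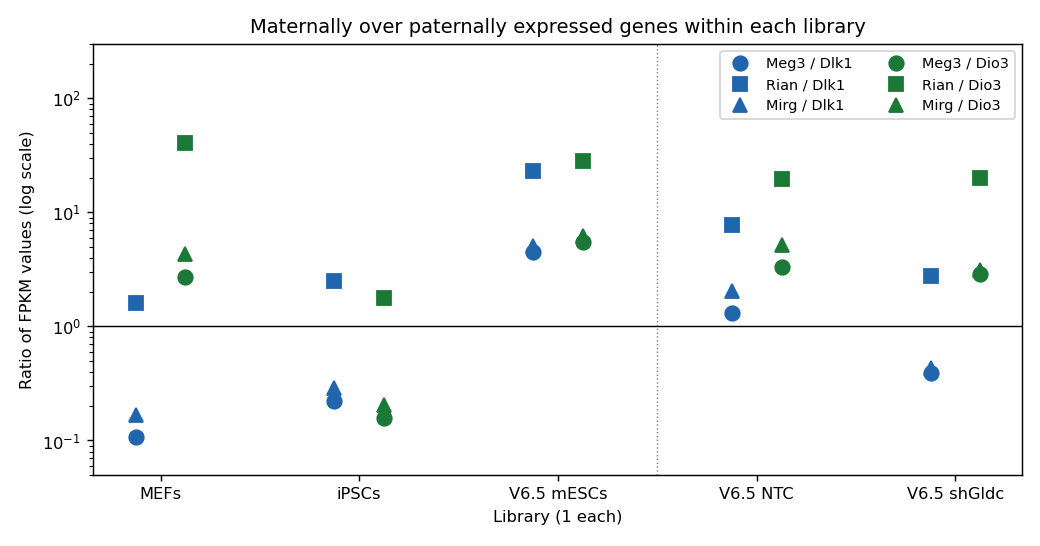
FPKM of each maternal gene divided by that of Dlk1 (blue) or Dio3 (green) in the same library, on a log scale, with the line at 1 marking equal levels and the dotted line dividing the tables. Over Dio3 the iPSC library stands below the other 4 (Rian 1.78 against 19.6 or more), while over Dlk1 the mESC library stands highest (Rian 23.0).

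The comparisons with MEFs ask how the locus differed between pluripotent and differentiated cells, and both use the same MEF library. Of 12840 genes in mESCs, 23.3% were at least 2-fold lower than in MEFs, and of 13032 genes in iPSCs, 21.3%, with medians over all genes of 0.25 and 0.31 on the log2 scale, relative to which the members' ratios are to be read. In mESCs, 4 of the 6 members were at least 2-fold lower, all among the 5 that passed the filter: Dlk1 at -5.82, Rian at -2.20, Dio3 at -1.50, and Mirg at -1.12. Dlk1 and Dio3 passed only through MEFs, which fixes their side. With a pseudocount of 1, Mirg (-0.93) and Dio3 (-0.77) were within 2-fold. Meg3 was at -0.65 and Rtl1, which did not pass the filter, at -0.88. Dlk1 was 66.4-fold lower in mESCs, with a counting interval of 40.6 to 116.

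In iPSCs, 5 of the 6 were at least 2-fold lower, 4 of them among the 5 that passed the filter: Dlk1 at -4.76, Rian at -4.18, Mirg at -3.78, Meg3 at -3.43, and Rtl1, below the filter, at -1.31. Meg3 and Mirg passed only through MEFs, which fixes their side. Dio3 was at 0.28, 1.23-fold higher with a counting interval of 0.891 to 1.71 that holds 1, and at -0.03 when the ratios were centred on the median gene. So Dio3 in iPSCs was not distinguishable from MEFs at this depth. Meg3 went from 62.7% of the MEF level in mESCs to 7.03% in iPSCs, and Rian from 21.6% to 5.37%. The counting interval of Meg3 over MEFs was 0.496 to 0.794 in mESCs and 0.0355 to 0.125 in iPSCs, so both were below MEFs beyond counting error.

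The knockdown comparison asks whether the locus changed when Gldc was lowered in V6.5 cells. Of 11969 genes, shGldc had 8.97% past 2-fold on the higher side of NTC and 7.68% on the lower, with a median of 0.04. Of the members, 4 passed the filter, and Dlk1 was past 2-fold on the higher side and Mirg on the lower, numbers too small to set against these shares. Dlk1 was at 2.30 in NTC and 5.27 in shGldc, a log2 ratio of 1.16 and 2.29-fold, with a counting interval of 1.52 to 3.40. Mirg was at 4.72 and 2.26 (-1.03), 47.9% of the NTC level, with an interval of 0.321 to 0.693. With a pseudocount of 1, Dlk1 was at 0.93 and Mirg at -0.81, so neither was past 2-fold. Meg3 was at 3.01 and 2.08 (-0.51) and Rian at 17.9 and 14.6 (-0.29), and the interval of Rian, 0.578 to 1.16, holds 1. The 3 maternal genes were all below their NTC level, by unequal amounts.

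Dio3 (0.913 and 0.727, -0.29) and Rtl1 (0.132 and 0.0499, -0.63) did not pass the filter, and both counting intervals hold 1 (0.421 to 1.44 and 0.116 to 1.28). Against the untreated mESCs of the other table, Mirg in shGldc was at -0.34, Dlk1 at 2.99, and Dio3 and Rian, on the other side than over NTC, at 0.55 and 0.15. The 3 endoderm markers that passed the filter were all at least 2-fold higher in shGldc (8.97% of all genes were), although Gata6 and Pdgfra passed only through shGldc, which fixes their side, with Gata6 at 8.22 against 0.462, Gata4 at 7.84 against 2.38, and Pdgfra, also a fibroblast marker, at 1.36 against 0.143. The list of 6 summed to 19.0 against 3.29, with Afp at 0 in both. The 10 fibroblast markers had no common direction: their sum was 8.15 against 11.6, with Thy1 at 1.11 against 6.95, while Fbn1 was at 1.27 against 0.905, and the median log2 ratio of the 5 that passed the filter was 0.45. The part of endoderm-like transcripts in the Dlk1 value was not tested.

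Genes that act on imprints, DNA methylation, or Polycomb chromatin at the locus were described as a list of 19. Between iPSCs and mESCs all 19 passed the filter, 2 were past 2-fold on each side, near the 10.1% higher and 7.44% lower over all genes, and the median was 0.33 against 0.04 over all genes. Dnmt3l, a cofactor of the de novo methyltransferases, was at 210 in iPSCs, 57.1 in mESCs, and 135 in NTC, and Tet2, which oxidises methylcytosine, at 6.56, 3.05, and 5.48. Dnmt3a, a de novo methyltransferase, was at 5.40, 23.2, and 12.2, and Dppa3, which protects maternal methylation in the zygote and opposes excess methylation of this locus in reprogramming, at 14.4, 60.6, and 11.7. Dnmt3a was thus lower and Dnmt3l higher in iPSCs than in mESCs and NTC. Tet2 in iPSCs was near its NTC level, and for Dppa3 the mESC library stood apart from both others. Zfp57 was at 125, 99.4, and 85.2, Trim28 at 818, 638, and 1119, and the insulator protein Ctcf at 30.2, 30.0, and 41.9, none past 2-fold within the table. Their levels say nothing of methylation at the locus, which was not measured.

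**Figure D5:**
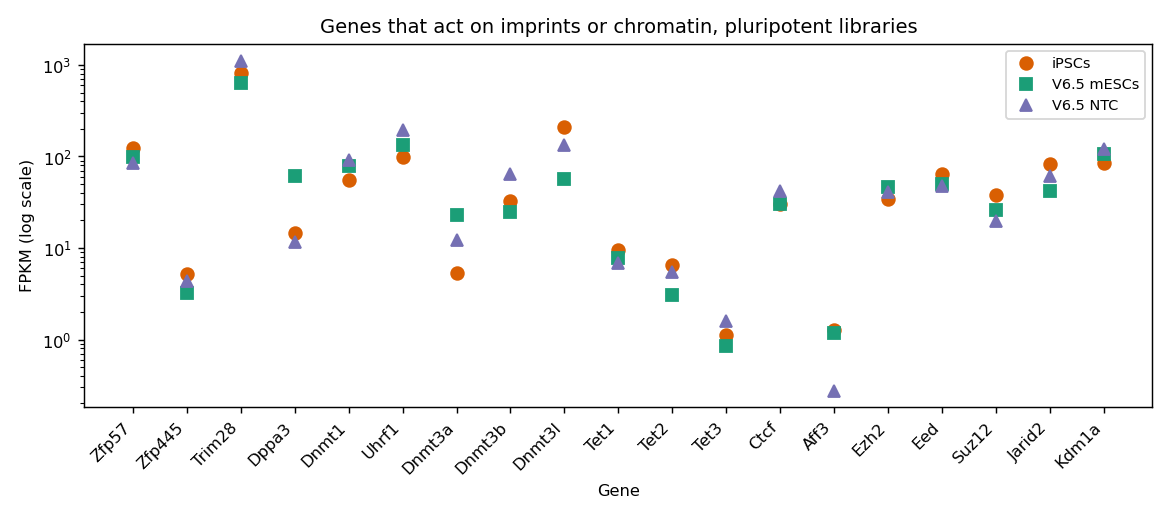
FPKM on a log scale (vertical axis) of the 19 genes that act on imprints or chromatin in iPSCs, mESCs, and NTC, 1 library each. Most genes lie close together in the 3 libraries, and Dppa3 (14.4, 60.6, and 11.7 in the order given), Aff3 (1.27, 1.17, and 0.275), Dnmt3a (5.40, 23.2, and 12.2), and Dnmt3l (210, 57.1, and 135) lie farther apart.

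Against MEFs, 16 of the 19 were at least 2-fold higher in mESCs (30.3% of all genes were) and 2 lower, and in iPSCs 15 (31.5% of all genes) and 2, with Tet3 and Aff3 the lower ones. Dppa3, Dnmt3b, Dnmt3l, Tet1, and Tet2 passed only through the pluripotent libraries and Tet3, in mESCs, only through MEFs, which fixes their side. Zfp57 was at 7.51 in MEFs and Dnmt3l at 0.0375. In shGldc over NTC, 18 passed the filter, none was at least 2-fold higher (8.97% of all genes were) and 1 was lower (7.68%): Tet1, another oxidase of methylcytosine (6.86 and 2.96, -1.19), with a list median of -0.27.

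The genes on either side of the locus that reached an FPKM of 1 were mostly within 2-fold between iPSCs and mESCs. Of the 5 on each side, Ppp2r5c, a phosphatase subunit, was the one past 2-fold (10.2 and 23.9, -1.22), and 4 of the 10 did not reach an FPKM of 1 in either library and could not be judged. Wars, a tRNA synthetase gene, was at 53.6 in iPSCs and 55.6 in mESCs, and Begain, the nearest gene upstream of Dlk1, at 1.58 and 1.25. Dio3os, the noncoding gene beside Dio3, was at 0.191 in MEFs, 0.124 in iPSCs, 0.141 in mESCs, and 0 in NTC and shGldc.

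Of the partners of the encoded proteins, the Notch genes were described because Dlk1 is related to their ligands. Of 12 in the list, 9 passed the filter between iPSCs and mESCs, with Dll1 (1.23 and 0.560, 1.01) at least 2-fold higher and Notch4 (2.49 and 5.50, -1.11) lower, where 10.1% of all genes were higher and 7.44% lower, and Dll1 passed only through iPSCs. In shGldc over NTC 8 passed, none was higher, and Notch4 was lower (1.99 and 7.44, -1.85), where the background shares were 8.97% and 7.68%. The Notch ligand Jag1 was, like Dlk1, mainly in MEFs (20.6, against 0.672 in iPSCs and 0.941 in mESCs), whereas Jag2 was at 0.0190 in MEFs, 17.2 in iPSCs, and 17.9 in mESCs. Of the 6 genes of thyroid hormone turnover and response, none was past 2-fold of the 2 that passed between iPSCs and mESCs. Dio2, an activating deiodinase, was at 0.0526 in MEFs and 0 in the others, and the receptor gene Thra was at 17.4 in MEFs, 4.30 in iPSCs, 7.86 in mESCs, 5.22 in NTC, and 2.63 in shGldc.

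Likeness to the locus was measured over 13656 genes as the root mean square difference of centred log2 values over the 5 libraries of both tables, so it includes any difference between the tables. The profiles closest to the mean of the maternal genes were those of Tlcd2 (0.22), Ocel1 (0.26), Ccnd1 (0.35), Ept1 (0.38), and Cdc42ep5 (0.43). Meg3, Rian, and Mirg themselves were at 0.23, 0.33, and 0.17 from that mean, to which each contributes, so these distances are small in part by construction. Ccnd1, the gene of cyclin D1, was at 81.1 in MEFs, 8.97 in iPSCs, 23.7 in mESCs, 43.8 in NTC, and 26.1 in shGldc. Those closest to Dlk1 were Arsb (0.45), Fbxl7 (0.49), Zfp503 (0.51), Ly96 (0.53), and Hmga2 (0.54), and Hmga2, a chromatin protein of embryonic mesenchyme, was at 78.8, 2.39, 2.43, 8.85, and 25.0. Those closest to Dio3 were Atf4 (0.11), Rnf219 (0.16), Arntl (0.19), Lrif1 (0.19), and Stat5a (0.20). These distances are smaller, but the levels of Dio3 (0.464 to 1.84) also spanned a narrower range than those of Dlk1 (0.574 to 38.1). Atf4, a transcription factor of the amino acid stress response, was at 262 in MEFs, 320 in iPSCs, 99.8 in mESCs, 143 in NTC, and 128 in shGldc. With 5 libraries, such likeness is a description.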

How the data were processed

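RNA of 5 mouse libraries was sequenced on an Illumina platform after preparation with a kit for long RNA. Per the paper's methods, the authors used TopHat2 for mapping to mm10, StringTie for assembly, and Ballgown for expression. The submitters' processing notes name TopHat2 2.1.0, StringTie 1.3.4d, and SAMtools 1.7, and list mm9 beside mm10. The authors deposited FPKM values in 2 separately made tables of 24421 genes; annotation, strand setting, and filters are not given in the sources used here.

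From these values, log2 ratios were taken with a pseudocount of 0.1, over genes reaching an FPKM of 1 in either library compared, and 2-fold served as the line. With 1 library per group no test was made. Depth came from the step between low FPKM values times length over 5723 single-transcript genes of GENCODE M21. Intervals of ratios are exact binomial (Clopper-Pearson) 95% intervals on the estimated fragments and cover counting error only, with 3 fragments as the floor. Rian matched no RefSeq transcript in that annotation, so its shortest transcript (294 bases) was used. The scripts were tested on simulated data. Sequences and motif matches are from RefSeq tables of GRCm38.p6.

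The named genes were all members, entries between Dlk1 and Dio3 reaching an FPKM of 1, 5 genes on each side, fixed lists of regulators, partners, and cell type markers (counts, with highest, lowest, and example members), and the 5 genes of most similar profile. Examples of the lists and Mir3072, Dio3os, Begain, and Wars were picked for description. The result of 1 listed gene is not reported here. Members and lists were chosen with earlier results of these data known. Alternatives were a pseudocount of 1 or 0.01, equal FPKM sums, median centring, an FPKM minimum of 0 or 5, and another control library. A change of over 0.59 in a log2 ratio, the robust SD for NTC over mESCs, counted as a move. The software was Python 3.11.15 with scipy 1.17.1, pandas 2.3.3, numpy 2.4.6, and matplotlib 3.10.9.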

Additional observations from a re-analysis of the deposited data

Results flagged for a closer look

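Dio3 was flagged because it moved in opposite directions from MEFs in the pluripotent libraries: the log2 ratio was 0.28 in iPSCs and -1.50 in mESCs. The difference was not tested, since each group is 1 library and both ratios share the MEF library. The iPSC ratio was -0.03 when centred on the median gene, and its counting interval holds equal levels.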

How the results depend on the processing

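With a pseudocount of 1, the members at least 2-fold higher or lower fell from 5 to 3 for iPSCs over mESCs, from 4 to 2 for mESCs over MEFs, and from 2 to 0 for shGldc over NTC, since that pseudocount shrinks ratios of low values. The difference between the class medians went from -3.72 to -2.05. The genes past 2-fold in iPSCs over mESCs were 2158, and 1309 with a pseudocount of 1, 3476 without a filter, and 1136 with an FPKM of at least 5. For shGldc over NTC they were 1993, and 1192, 3838, and 797. Against untreated mESCs, 1 member was past 2-fold in shGldc.

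Alternatives chosen after seeing the data were NTC in place of the mESCs, which gave 3 members past 2-fold, a class difference of -2.23, and a reversed Dlk1 ratio of -0.77, and the fibroblast share taken off the mESCs, which gave a class difference of -4.46, or -4.45 without Thy1 and Twist1. The cause of the change with NTC was not tested. Of the remaining ratios of single genes under an alternative, 98 did not move and 21 moved, of which Dio3 in shGldc went from -0.29 over NTC to 0.55 over untreated mESCs. Rian also changed sign there, from -0.29 to 0.15, by less than the SD named as the limit. Scaling to equal FPKM sums changed the share of higher genes among those past 2-fold in iPSCs over MEFs from 59.7% to 48.3%, and centring to 48.6%.

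No paired analysis was possible because each group is 1 library. The fragment counts behind Rtl1 in every library but MEFs, and behind Meg3 and Mirg in iPSCs, limit their precision, and 1 iPSC line and 1 untreated V6.5 library stand for their cell types.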

Other observations

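Rtl1 belongs to a family of genes derived from retrotransposons, of which 9 of 10 others were matched in the tables. Between iPSCs and mESCs 4 passed the filter and none was past 2-fold. In shGldc over NTC 5 passed, and Peg10 (110 and 45.7, log2 ratio 1.27), which is paternally expressed on another chromosome, and Rtl8c (14.2 and 4.37, 1.68) were at least 2-fold higher, none was lower, where 8.97% of all genes were higher and 7.68% lower, and the median was 0.99 against 0.04 over all genes. Rtl8a (14.2 and 7.42, 0.92) and Rtl8b (17.5 and 8.80, 0.99) are near-identical copies of Rtl8c on the X chromosome, so the division of reads among them is uncertain. Against MEFs, 5 of the 7 that passed were at least 2-fold lower in mESCs and Peg10 was higher (14.5 and 2.84), where 23.3% of all genes were lower. Rtl3, Rtl5, and Rtl8c passed only through MEFs, which fixes their side.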
